A study of Mus musculus with 10 samples.

Results

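The 28 genes described here build cholesterol, control its synthesis, or carry, store, take up and export it, and they were measured in interscapular brown adipose tissue (iBAT) of mice with and without the receptor tyrosine kinase AXL. They were listed by name for their role in the pathway, by a rule that uses no measured value, although earlier results of these data were known when the list was made. All 28 were found among the 41249 gene identifiers of the count tables and passed the filter on low counts. In 18 of them the protein is an enzyme of sterol synthesis, 4 control the transcription factor SREBP2, and 6 serve sterol transport, storage, uptake or export. The list does not hold every gene of the pathway. RNA of whole iBAT was sequenced from 5 whole-body, constitutive Axl KO mice and 5 wild-type (WT) littermate controls, all male, with 1 library per mouse. The Axl KO allele is a knockout-first gene trap (tm1a) that interrupts Axl within the gene in every cell type, and the line came from a pair of embryonic stem cell clones. Both genotypes were fed a high-fat diet (HFD) for 24 weeks from 6 to 8 weeks of age at room temperature, according to the series record (the study's text gives a somewhat later start and a longer diet), and no mouse on another diet was included. Axl itself was at 0.438 to 2.01 CPM (normalized counts scaled to library size) in Axl KO and at 38.3 to 52.4 CPM in WT mice. Between 5431014 and 9580215 counts were obtained per mouse, and a member gene had between 20 and 6681 counts in a mouse. In 25 of the 28 genes every mouse had at least 30 counts, and the SD that counting alone gives was below the spread between mice in all genes but Mvk, Ebp and Soat1.

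Cholesterol is made from acetyl-CoA through mevalonate, squalene and lanosterol. The enzymes of this route are under common control by SREBP2, which SCAP escorts out of the endoplasmic reticulum when sterols are scarce and which INSIG proteins hold back when sterols are plentiful. Excess sterol activates the liver X receptors, which raise the transporters ABCA1 and ABCG1. Brown adipocytes keep most of their lipid as triglyceride, and the sterol they need for membranes and droplets comes from both synthesis and lipoprotein uptake.

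Many promoters of SREBP2 target genes combine a sterol regulatory element with a CCAAT box, the site of the factor NF-Y. RefSeq promoter windows (GRCm38.p6, 250 bases before to 50 after each gene start) were matched by symbol for 22 of the 28 genes, and Fdps, Fdft1, Sqle, Stard4, Abcg1 and Scarb1 had no entry in that table. The letters CCAAT, searched on both strands, occurred in a window of 18 of these 22 genes (81.8%), against 41.1% of all 27025 genes in the table. Of the 15 matched synthesis genes 14 held it, the exception being Acat2. The letters TCACNCCAC of a sterol regulatory element, also searched on both strands, occurred in 1 of the 22 genes, Hmgcs1 (4.55%), against 1.44% of all genes, and the exact direct repeat that liver X receptors bind (DR4) occurred in 0 of 22, against 0.0148% of all genes. These matches describe letters in a window and do not show binding. The 150 bases before the gene start are given in lower case with both motifs in capitals. They are shown for Hmgcs1, which holds both motifs, and for Nsdhl, Sc5d and Mvd. The levels of Nsdhl, Sc5d and Mvd correlated with those of Sqle over all 10 mice (for Mvd by Pearson's r alone). Without WT replicate 3 only the relation of Nsdhl had an adjusted permutation p under 0.05. CCAAT appears as ATTGG where it is read from the other strand, and the motifs do not overlap.
Hmgcs1, chr13:119690201-119690350, forward strand: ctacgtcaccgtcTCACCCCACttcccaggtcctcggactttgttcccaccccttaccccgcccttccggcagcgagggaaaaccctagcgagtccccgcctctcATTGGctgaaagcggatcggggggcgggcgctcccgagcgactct
Nsdhl, chrX:72918371-72918520, forward strand: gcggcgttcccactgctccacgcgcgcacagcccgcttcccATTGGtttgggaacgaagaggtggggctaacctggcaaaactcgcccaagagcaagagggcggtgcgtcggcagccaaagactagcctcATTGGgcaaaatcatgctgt
Sc5d, chr9:42264301-42264450, reverse strand: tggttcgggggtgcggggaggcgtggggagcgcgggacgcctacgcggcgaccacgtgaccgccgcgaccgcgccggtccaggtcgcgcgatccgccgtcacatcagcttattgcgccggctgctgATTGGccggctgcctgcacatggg
Mvd, chr8:122443423-122443572, reverse strand: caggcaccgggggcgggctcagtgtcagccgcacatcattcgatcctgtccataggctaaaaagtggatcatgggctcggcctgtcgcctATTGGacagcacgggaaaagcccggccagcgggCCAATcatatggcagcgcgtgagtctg

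The levels of the genes in iBAT were first set side by side as CPM per kilobase of merged exons, the only scale here on which genes can be compared with each other. Insig1, which encodes an endoplasmic reticulum protein that retains SCAP and is itself an SREBP target, had the highest level with a mean of 130.5 CPM per kilobase over the 10 mice, from 90.7 to 181. Hmgcs1, the cytosolic HMG-CoA synthase, followed at 105 (88.8 to 126), and these ranges overlapped. Acat2, which joins acetyl-CoA units in the cytosol, was at 68.6 (53.1 to 86.1), below every mouse's value for Hmgcs1 and above every mouse's value for Lrp1. Lrp1, a large endocytic receptor for lipoprotein remnants and other ligands, was at 35.5 (29.1 to 47.6), and Abca1, which exports cholesterol to apolipoproteins, at 26.8 (23.2 to 32.4). Among the enzymes after squalene, Sc5d, a sterol desaturase, was at 25.2 and Nsdhl, a sterol dehydrogenase of demethylation, at 14.3 CPM per kilobase. Sqle, the squalene epoxidase and a control point of the route, was low at 1.93 (0.669 to 3.43). Soat1, which esterifies cholesterol for storage, had the lowest level of the 28 at 0.432 (0.298 to 0.549), below every mouse's value for the next gene, Stard4. Over the whole order, only the steps from Hmgcs1 to Acat2, from Acat2 to Lrp1 and from Stard4 to Soat1 separated neighbours without overlap between mice. The lengths count each base that any annotated transcript covers, so genes with long alternative transcripts, such as Lss with 10787 bases, come out lower on this scale.

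**Figure D1:**
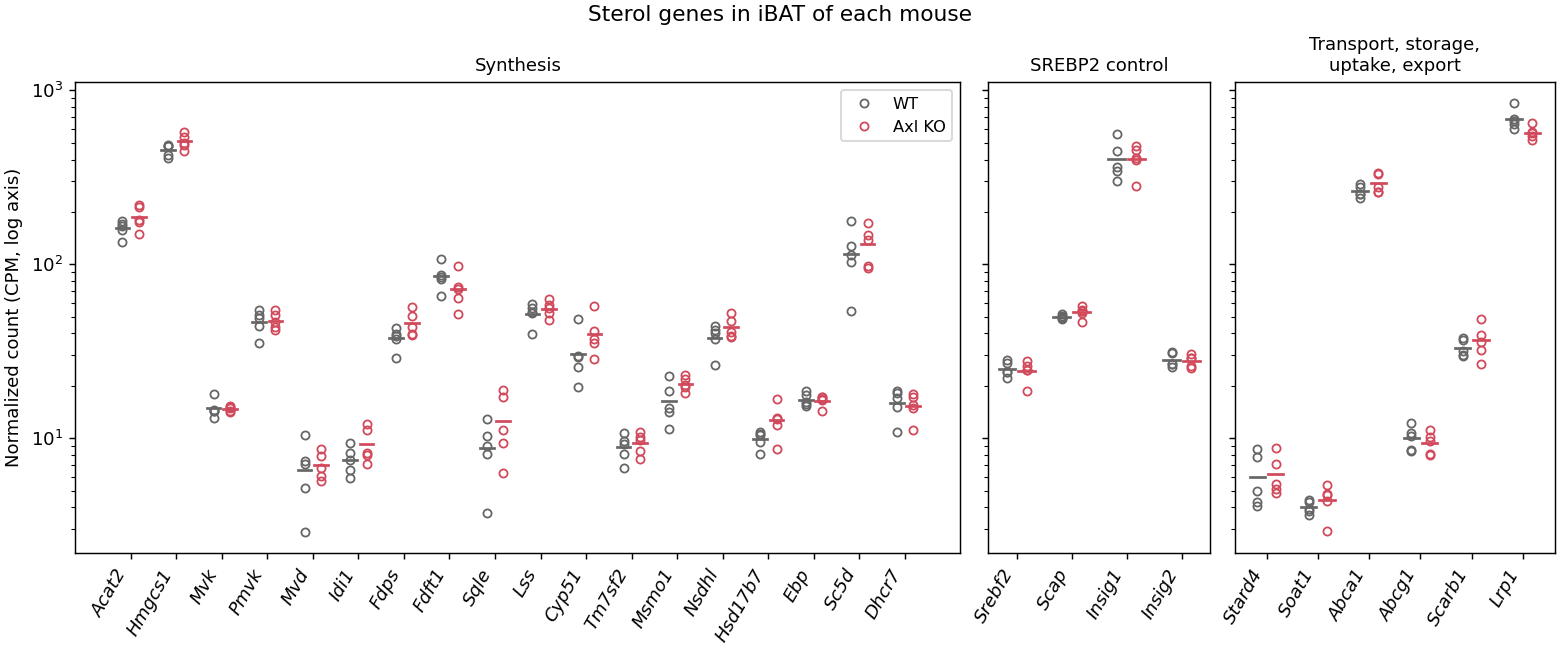
Normalized counts in CPM (log axis) of the 28 sterol genes in each mouse, with 1 circle per mouse and a line at the mean of 5 mice, WT in grey and Axl KO in red. The genotypes overlap for all 28 genes, and within WT 1 mouse lies far below the others for Sqle, Mvd and Sc5d.

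The mouse labelled WT replicate 3 stood apart from the other mice in these genes before any comparison was made. It had the lowest value of the 10 mice in 12 of the 18 synthesis genes. Its mean deviation over the 18 was −0.47 on the log2 scale from the mean of all mice. How often this mouse was the lowest over all tested genes was not counted, so the low values are not shown to be particular to these genes. Axl KO replicate 1 lay at the other end, with the highest value in 7 of the 18 genes and a mean deviation of 0.35. WT replicate 1 had the highest value in 6. The same WT replicate 3 had the lowest summed level of 11 brown adipocyte markers (7707 CPM, where the other WT mice had 8199 to 9793) and the highest summed level of 11 skeletal muscle markers (4153 CPM, where the other mice had 6.63 to 3490). The part that these marker levels have in the sterol genes was not tested. Values without this mouse are given for some of the results that it moved.

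The comparison of genotypes asks whether loss of AXL alters the sterol programme of iBAT after long HFD. When p-values of edgeR's quasi-likelihood fit were adjusted (Benjamini-Hochberg) over all 13739 tested genes, 0 of the 28 sterol genes had an adjusted p under 0.05 (background 0.00728% of all tested genes, which is Axl alone), and the lowest adjusted p of a member was 0.572. DESeq2 also called 0 of the 28 (background 0.0696%). At an unadjusted p under 0.05 edgeR gave 3 of 28, Fdps and Hsd17b7 higher and Lrp1 lower in Axl KO mice, where 8.38% of all tested genes reached that level, 4.52% higher and 3.86% lower. DESeq2 gave 4, those 3 and Hmgcs1, with a background of 6.93%. The values of the genotypes overlapped for every one of the 28 genes, where 1.36% of all tested genes did not overlap. Of the 18 synthesis genes 14 had a positive log2 fold change, with a median of 0.17, and over all tested genes 49.7% were positive with a median of −0.00078. Without WT replicate 3 the median of the synthesis genes was 0.095 and 12 of 18 were positive. Without WT replicate 1, which was high in these genes, it was 0.26 with 15 positive. Without both WT replicate 3 and Axl KO replicate 1 it was 0.049 with 11 positive. That pair was chosen after the values were seen, for lying at opposite ends, so a smaller median is to be expected. The genes share mice, so these counts are not independent. In whole tissue, fewer cells of a type and less RNA per cell cannot be told apart. The summed brown adipocyte markers ran from 9483 to 12690 CPM in Axl KO and from 7707 to 9793 CPM in WT mice, with 10 of 11 markers higher in Axl KO mice, 5 of them at an unadjusted p under 0.05 (4.52% of all tested genes were) and 0 at an adjusted one. The skeletal muscle markers, with sums of 6.63 to 3490 CPM in Axl KO and 841 to 4153 CPM in WT mice, were lower in Axl KO mice in 11 of 11, with 0 at an unadjusted p under 0.05. The part of either in the synthesis genes was not tested.

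**Figure D2:**
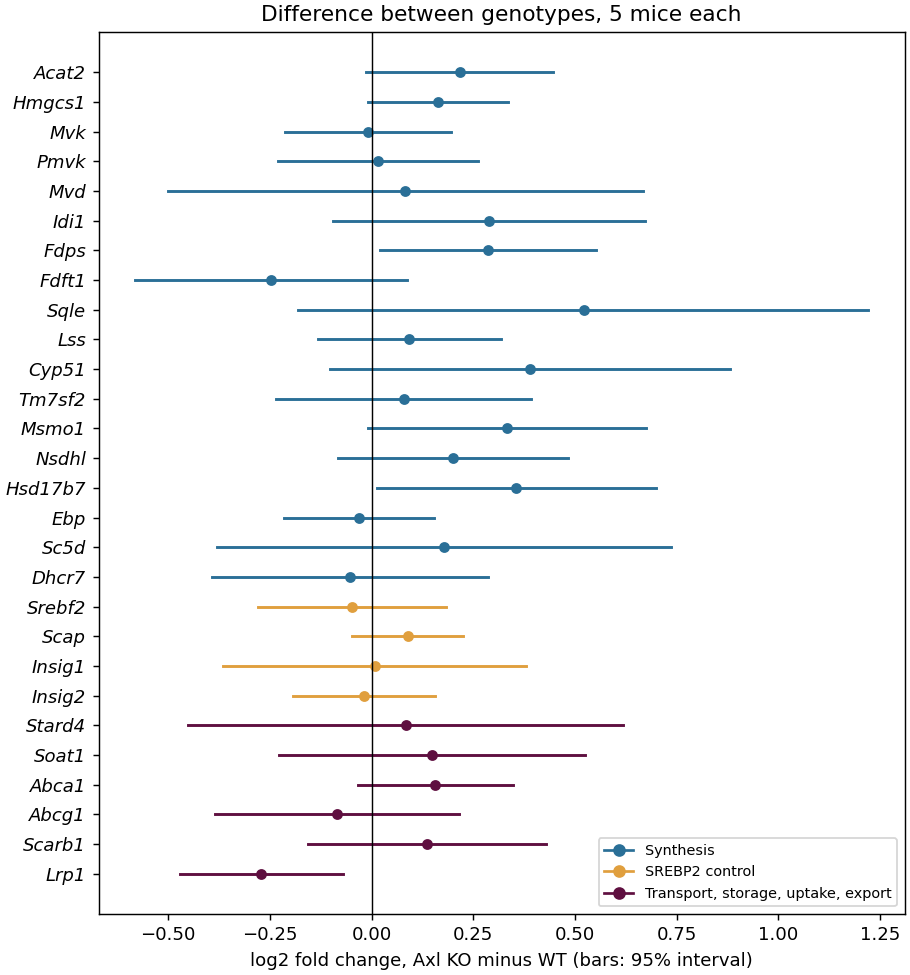
Log2 fold change of each sterol gene between 5 Axl KO and 5 WT mice from edgeR (points) with its 95% interval (bars), coloured by role. The intervals of Fdps, Hsd17b7 and Lrp1 leave out 0, and the widest, that of Sqle, runs from −0.18 to 1.22.

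The route opens with Acat2 and Hmgcs1. Hmgcs1 was at 501, 578, 538, 487 and 446 CPM in Axl KO replicates 1 to 5 and at 408, 479, 426, 484 and 479 CPM in WT replicates 1 to 5. Of the Axl KO mice 4 lay above every WT mouse, but replicate 5 lay below 3 of the WT mice. This gave a log2 fold change of 0.16 (standard error 0.080, 95% interval −0.0095 to 0.34), with an exact permutation p of 0.0873 and an adjusted p of 0.602 in edgeR's test. Of the exon bases of Hmgcs1 12.1% lie opposite an antisense gene, Gm48342, with which it may share reads. Acat2 was at 219, 180, 150, 176 and 214 CPM in Axl KO and at 177, 167, 171, 157 and 135 CPM in WT mice. It had a log2 fold change of 0.22 (standard error 0.11, interval −0.014 to 0.45). Acat3, a near copy of Acat2, had at most 13 counts in a mouse and was not tested, and reads shared by the pair cannot be told apart. Mvk, Pmvk and Mvd, which turn mevalonate into the isoprene unit, had log2 fold changes of −0.0078, 0.017 and 0.083. For Mvk, at 14.7 ± 0.509 CPM for Axl KO mice and 14.8 ± 1.91 CPM for WT mice (mean ± SD of 5 each), the interval of the fold was 0.863 to 1.15.

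Idi1 rearranges the isoprene unit, Fdps joins such units into farnesyl diphosphate, and Fdft1 commits farnesyl diphosphate to squalene. Fdps (ENSMUSG00000059743, chromosome 3 from 89093588 to 89101959 of GRCm38, reverse strand) was at 50.1, 39.2, 39.6, 43.3 and 57.0 CPM in Axl KO and at 43.1, 38.6, 28.9, 37.0 and 39.9 CPM in WT mice. Axl KO replicates 1, 4 and 5 lay above every WT mouse, whereas the other two lay among them. This gave a log2 fold change of 0.29 (standard error 0.12, interval 0.020 to 0.55, unadjusted p = 0.0369 and adjusted p = 0.572 in edgeR's test), with an exact permutation p of 0.0794. Without WT replicate 3 it was 0.20, and without WT replicate 1 it was 0.34. The unadjusted p did not stay under 0.05 without Axl KO replicate 1 or 5 or WT replicate 2, 3 or 4. A protein-coding gene on the same strand, Gm43738, shares 26.7% of the exon bases of Fdps, so its count could be split. Idi1 had a log2 fold change of 0.29 (standard error 0.18), at 9.29 ± 2.17 CPM for Axl KO mice and 7.52 ± 1.39 CPM for WT mice (mean ± SD of 5 each). Fdft1 lay the other way, at 72.0 ± 16.6 CPM for Axl KO mice and 85.3 ± 14.8 CPM for WT mice (mean ± SD of 5 each), and the log2 fold change was −0.25 (interval −0.58 to 0.087). Of its exon bases 18.3% lie opposite exons of Ctsb, which encodes cathepsin B, and since the strand setting of the counting is not given in the sources used here, reads of the pair cannot be told apart there.

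Sqle and Lss make the sterol ring from squalene. Sqle (ENSMUSG00000022351, chromosome 15 from 59315077 to 59331192, forward strand) was at 19.0, 6.33, 11.2, 9.34 and 17.2 CPM in Axl KO and at 12.9, 9.02, 3.71, 10.3 and 8.07 CPM in WT mice. Axl KO replicates 1 and 5 were the highest of the 10 mice, but Axl KO replicate 2 was lower than every mouse except WT replicate 3. The log2 fold change of 0.52 was the largest of the 28 and also the least certain, with a standard error of 0.32 and an interval of −0.18 to 1.22 (exact permutation p = 0.222). Without WT replicate 3 it was 0.32, and without WT replicate 1 it was 0.70. Lss, which closes the ring to lanosterol, was at 55.5 ± 5.77 CPM for Axl KO mice and 52.0 ± 7.29 CPM for WT mice (mean ± SD of 5 each), a log2 fold change of 0.093 (interval −0.13 to 0.32).

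Later enzymes trim lanosterol to cholesterol. Hsd17b7, a reductase of the demethylation steps (ENSMUSG00000026675, chromosome 1 from 169949535 to 169969241, reverse strand), was at 16.9, 13.0, 8.64, 13.0 and 11.9 CPM in Axl KO and at 10.5, 10.4, 8.11, 10.9 and 9.46 CPM in WT mice. Except for replicate 3, the Axl KO mice all exceeded the highest WT mouse. Its log2 fold change was 0.36 (standard error 0.16, interval 0.013 to 0.70, unadjusted p = 0.0429 and adjusted p = 0.583 in edgeR's test), with an exact permutation p of 0.0635. It was 0.29 without WT replicate 3, 0.23 without Axl KO replicate 1 and 0.48 without Axl KO replicate 3. The unadjusted p stayed under 0.05 only on leaving out Axl KO replicate 3, WT replicate 1 or WT replicate 4. Msmo1 and Cyp51 remove methyl groups in the same stretch. Their log2 fold changes were 0.33 (interval −0.0095 to 0.68) and 0.39 (interval −0.10 to 0.88). On leaving out 1 mouse, that of Msmo1 ran from 0.22 (without WT replicate 3) to 0.48 (without WT replicate 1). That of Cyp51 ran from 0.22 (without Axl KO replicate 1) to 0.62 (without WT replicate 1). Cyp51 was at 57.8, 41.4, 35.0, 28.4 and 37.0 CPM in Axl KO and at 48.6, 29.3, 19.6, 29.6 and 25.6 CPM in WT mice, and WT replicate 1 exceeded 4 of the 5 Axl KO mice. Nsdhl had a log2 fold change of 0.20 (interval −0.084 to 0.48) and Sc5d one of 0.18 (interval −0.38 to 0.74). These were 0.092 and −0.0042 without WT replicate 3, and 0.26 and 0.39 without WT replicate 1. Tm7sf2, a sterol reductase that shares 12.1% of its exon bases with Vps51 on the same strand, was at 0.079, and Ebp, a sterol isomerase, and Dhcr7, the reductase of the last step, were at −0.032 and −0.054. For Ebp the interval of the fold was 0.861 to 1.11.

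Among the 4 genes that control SREBP2, no difference passed the test and the median log2 fold change was −0.0059. Srebf2, which encodes SREBP2, was at 24.4 ± 3.43 CPM for Axl KO mice and 25.1 ± 2.43 CPM for WT mice (mean ± SD of 5 each), a log2 fold change of −0.048 (interval −0.28 to 0.18). Scap varied least of the 28 genes between mice of a genotype, and 4 of the 5 Axl KO mice lay above every WT mouse while replicate 3 lay below them all. Its log2 fold change was 0.089 (interval −0.048 to 0.23). Insig1 was at 457, 481, 410, 395 and 281 CPM in Axl KO and at 560, 448, 302, 362 and 342 CPM in WT mice. The genotypes interleaved, with a WT mouse highest and an Axl KO mouse lowest, and the log2 fold change was 0.0077 (interval −0.36 to 0.38). Insig2, its close relative in function, was at 27.9 ± 2.21 CPM for Axl KO mice and 28.3 ± 2.63 CPM for WT mice (mean ± SD of 5 each).

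Of the 6 genes for transport, storage, uptake and export, Lrp1 had the lowest p of all 28. Lrp1 (ENSMUSG00000040249, chromosome 10 from 127538161 to 127621148, reverse strand) was at 516, 547, 649, 576 and 566 CPM in Axl KO and at 644, 671, 684, 601 and 842 CPM in WT mice. Axl KO replicates 1, 2, 4 and 5 lay below every WT mouse, and replicate 3 lay among the WT mice. This gave a log2 fold change of −0.27 (standard error 0.092, interval −0.47 to −0.071, unadjusted p = 0.012 and adjusted p = 0.572 in edgeR's test), with an exact permutation p of 0.0238 where the smallest possible is 0.00794. The unadjusted p stayed under 0.05 whichever single mouse was left out. Lrp1 is also made by fibroblasts and macrophages. The summed level of 6 fibroblast markers was 432.8 to 716.8 CPM in Axl KO and 627.9 to 842.9 CPM in WT mice. In Axl KO mice 6 of 6 were lower, where 49.7% of all tested genes were higher. In edgeR's test 2 of them were lower at an unadjusted p under 0.05 (3.86% of all tested genes were) and 0 at an adjusted one. The sum of 12 macrophage markers was 161.9 to 288.3 CPM against 181.1 to 272.6 CPM, and the part of either cell type in the level of Lrp1 was not tested.

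Abca1 was at 336, 279, 261, 261 and 330 CPM in Axl KO and at 277, 290, 241, 253 and 254 CPM in WT mice. All 5 Axl KO mice lay above the WT median, but only replicates 1 and 5 exceeded every WT mouse. This gave a log2 fold change of 0.16 (standard error 0.088, interval −0.034 to 0.35) with an exact permutation p of 0.167. Abcg1, which exports cholesterol to high-density lipoprotein, had a log2 fold change of −0.085 (interval −0.38 to 0.22), so the point estimates of these liver X receptor targets had opposite signs. Scarb1, the receptor for high-density lipoprotein, was at 36.5 ± 8.10 CPM for Axl KO mice and 33.2 ± 3.73 CPM for WT mice (mean ± SD of 5 each). Stard4, which moves cholesterol between membranes, had a log2 fold change of 0.083 (interval −0.45 to 0.62) and Soat1 one of 0.15 (interval −0.23 to 0.53), both at low counts.

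A further 46 genes of the same pathways were listed by name, of which 39 were tested and 7 fell below the filter. None had an adjusted p under 0.05 by edgeR, 24 had a positive and 15 a negative log2 fold change, and 6 had an unadjusted p under 0.05, 3 in each direction, where 8.38% of all tested genes did. Cyp27a1, the mitochondrial sterol hydroxylase, was at 59.0 ± 6.63 CPM for Axl KO mice and 70.7 ± 3.79 CPM for WT mice (mean ± SD of 5 each), a log2 fold change of −0.26 (standard error 0.078). Of the Axl KO mice 4 lay below every WT mouse. Cyp39a1, an oxysterol hydroxylase, was at −0.56 (standard error 0.24) and Erlin1, a membrane protein that takes part in the breakdown of sterol-regulated proteins, at −0.32 (standard error 0.12). This gave a log2 fold change of 0.29 (standard error 0.11) for Pdss1, which makes the side chain of coenzyme Q, 0.19 (standard error 0.074) for Nr1h3, which encodes a liver X receptor, and 0.15 (standard error 0.066) for Scp2, a sterol carrier. The adjusted p of these 6 genes in edgeR's test lay between 0.572 and 0.58, and the genotypes overlapped for each.

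Several sterol genes varied widely between mice of the same genotype. On the log2 scale the SD within genotype was 0.63 for Sqle, a value that 97.4% of all tested genes did not exceed, 0.52 for Sc5d, 0.48 for Mvd and 0.42 for Cyp51. Scap, at 0.085, and Hmgcs1, at 0.13, varied little. The median over the 28 genes was 0.22 and that over all tested genes 0.18. For Sqle and Sc5d the SD that counting alone gives was 0.17 and 0.049.

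**Figure D3:**
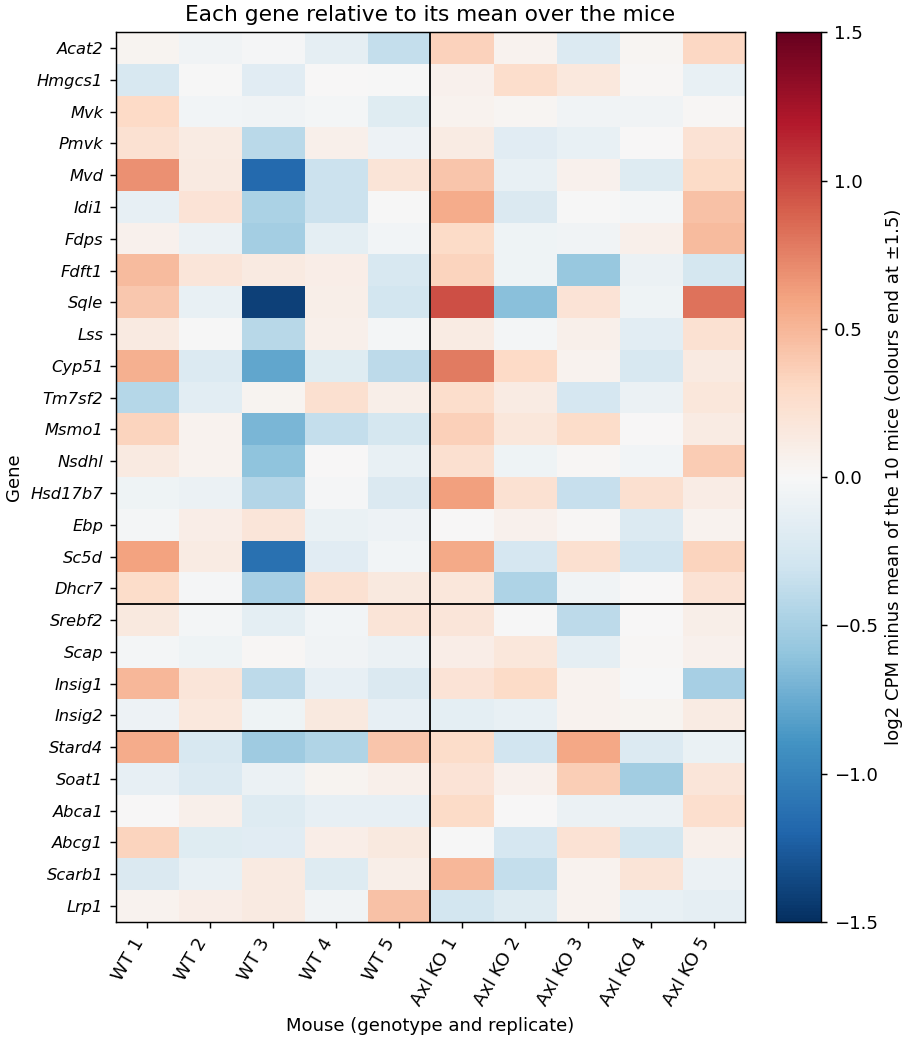
Deviation of each sterol gene (rows) in each mouse (columns) from the mean of all 10 mice on the log2 scale of normalized counts, red above and blue below. The column of WT replicate 3 is blue for most synthesis genes and that of Axl KO replicate 1 is red, while Hmgcs1, Scap and Insig2 stay pale in both columns.

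Whether the genes varied together over the 10 mice was examined first with Hmgcs1 as the reference, as 27 relations with Pearson's r and Spearman's rho and permutation p-values adjusted by Benjamini-Hochberg. None of the 27 had an adjusted p under 0.05 by either measure, and the median r of the 17 other synthesis genes was 0.018. Without Axl KO replicate 2 and WT replicate 1, the mice farthest from the median of Hmgcs1, the median r was 0.26, on deviations from the genotype means it was −0.21, and without WT replicate 3 it was −0.41, each with 0 of 27 past the threshold. The sign of the relation with Hmgcs1 thus changed with the mice used. Sqle was then taken as the reference because it varied most, a choice made after the values were seen. Of 27 relations 11 had an adjusted permutation p under 0.05 for Pearson's r, all positive, and 3 did for Spearman's rho. The share of all tested genes that correlate with Sqle over these mice was not computed. The count of 11 therefore does not show a relation particular to the sterol genes. The 11 were Nsdhl, Sc5d, Lss, Fdps, Pmvk, Dhcr7, Mvd, Idi1, Cyp51 and Msmo1 of synthesis, and Abca1.

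Nsdhl lay closest to Sqle, with r = 0.94 (permutation p = 0.00014, adjusted p = 0.00378) and rho = 0.90 (permutation p = 0.00081, adjusted p = 0.0154) over the 10 mice. It was at 47.3, 38.4, 40.7, 38.9 and 52.2 CPM in Axl KO and at 43.9, 41.7, 26.4, 40.1 and 37.1 CPM in WT mice, and its highest and lowest mice overall were Axl KO replicate 5 and WT replicate 3. Sc5d had r = 0.91 (permutation p = 0.00066, adjusted p = 0.00783) and rho = 0.83 (permutation p = 0.00491, adjusted p = 0.0442). It was at 173, 97.9, 138, 95.4 and 147 CPM in Axl KO and at 178, 127, 53.5, 104 and 114 CPM in WT mice, while the genotype means were 130.3 and 115.1 CPM.

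For other genes the relation with Sqle did not pass the test. Some had a moderate positive r, with 0.575 for Hsd17b7 (rho = 0.455), 0.52 for Stard4 (rho = 0.58) and 0.48 for Acat2 (rho = 0.44). Mvk had r = 0.37 (rho = 0.56), and the adjusted permutation p-values for r of these genes were 0.183 to 0.446. The r was −0.018 for Hmgcs1 (rho = 0.0061), 0.047 for Fdft1 (rho = 0.079), 0.048 for Tm7sf2 (rho = 0.18) and −0.34 for Ebp (rho = −0.33), and it was 0.34 for Srebf2 (rho = 0.33) and 0.21 for Insig1 (rho = 0.18), with adjusted permutation p-values of 0.483 to 0.979. For Hmgcs1 the r with Sqle was −0.33 on deviations from the genotype means, −0.48 without WT replicate 3 and −0.69 without the 2 mice farthest from the median of Sqle, with adjusted permutation p-values of 0.572, 0.388 and 0.227. How many relations with Sqle passed depended on the mice used. With deviations from the genotype means in place of levels, 7 of 27 relations passed, without WT replicate 3 only that of Nsdhl did (r = 0.89, adjusted permutation p = 0.0356), and without both WT replicate 3 and Axl KO replicate 1, the mice farthest from the median of Sqle, 0 did. The r of Nsdhl over the remaining 8 mice was 0.88 (adjusted permutation p = 0.0871). Leaving out the mice farthest from the median narrows the range of Sqle and leaves fewer mice. Fewer relations would then pass in any case, so this fit cannot show whether the relation rested on those mice.

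**Figure D4:**
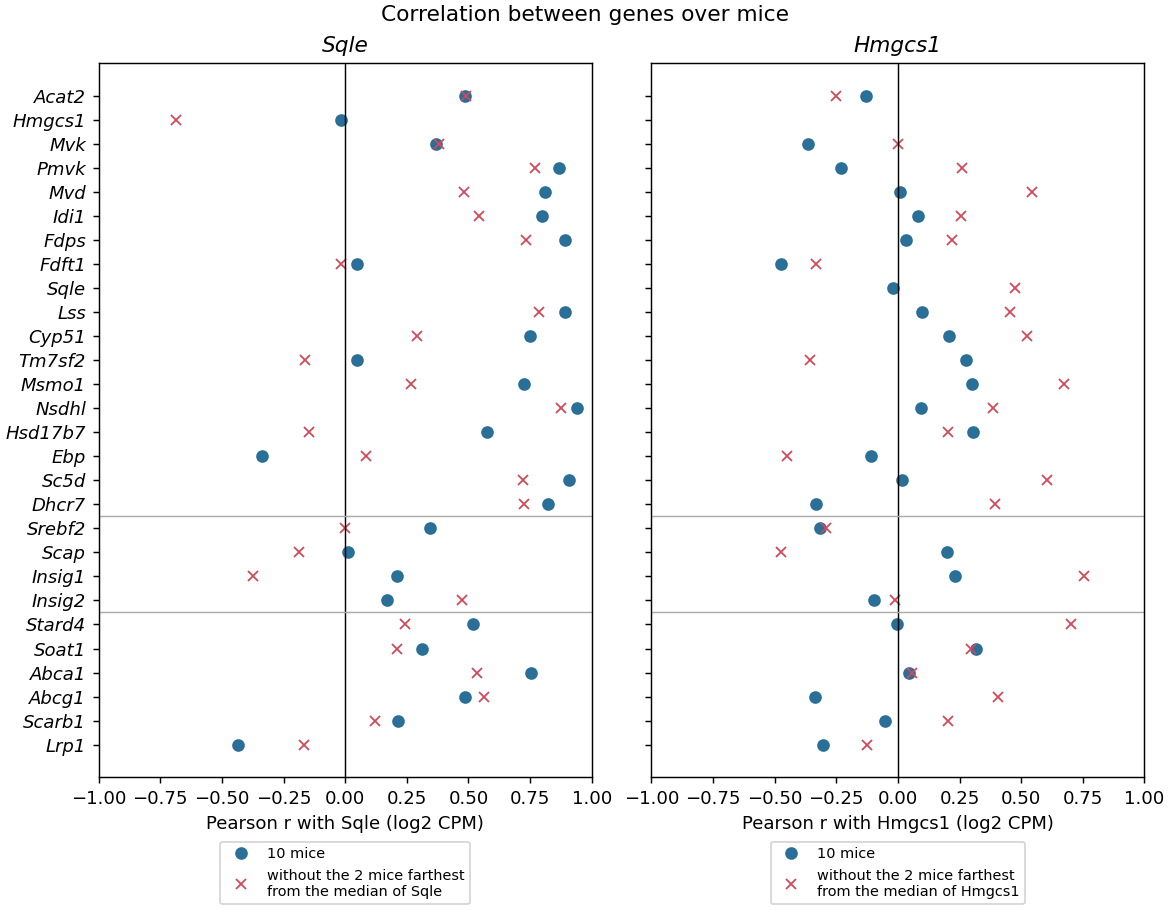
Pearson's r of each sterol gene with Sqle (left) and with Hmgcs1 (right), from log2 CPM, over 10 mice (circles) and without the 2 mice farthest from the median of that reference gene (crosses). With Sqle, the r of Nsdhl, Lss, Pmvk, Fdps, Dhcr7 and Sc5d stays above 0.7 without these mice, and that of Cyp51 and Msmo1 is then under 0.3.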

How the data were processed

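RNA of whole iBAT from 5 Axl KO and 5 WT mice was sequenced, 1 library per mouse. The authors deposited raw counts per Ensembl gene for each mouse, 41249 genes per file. The submitters' processing notes name bcl2fastq, Trimmomatic 0.36, STAR 2.6.1c, DESeq2 and GRCm38.p5, whereas the study's methods name Trim Galore and hisat2, and the labels say polyA RNA where the methods say rRNA depletion. The counting tool, strand setting and treatment of reads with several hits are not given in the sources used here.

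Symbols, positions and merged exon lengths came from GENCODE M21, in which 86 identifiers had no entry. Genes with a mean above 1 CPM (13739) were tested in edgeR 4.0.16 (TMM, quasi-likelihood, R 4.3.3) with Benjamini-Hochberg adjustment, and DESeq2 1.42.0 was the alternative. Single genes also had a two-sided exact permutation test on the difference of group means of normalized CPM, without logs. Correlations had 100000 permutations, or exact ones for fewer mice. The scripts were tested on simulated data. Other scalings, filters, a replicate block and leaving out each mouse were tried. Every member had its values given or counted, and of the other pathway genes those with an unadjusted p under 0.05 were named. The members and lists were chosen with earlier results of these data known. The labels name no batch. Each library is a separate mouse, and no pair of libraries agreed within sampling noise (smallest chi-square per gene 5.47).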

Additional observations from a re-analysis of the deposited data

Results flagged for a closer look

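Of 58 groups of 5 mice checked for 1 mouse lying far from the rest, 2 were noted, where chance gives about 2.9 (1 in 20). Axl in Axl KO replicate 4 was at 0.438 CPM, below the next mouse at 1.7 CPM by 0.801 of the range of its group. Ebp in Axl KO replicate 4 was at 14.3 CPM, below the next at 16.5 CPM by 0.781 of the range. Both gaps exceed the limit of 0.71 for 5 values.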

How the results depend on the processing

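Between 5431014 and 9580215 counts were obtained per mouse, and the interval of a gene gives the range of differences compatible with its values in these mice. Where the interval holds 0, these mice do not show the direction of the difference. In each of the 16 alternatives 0 of the 28 sterol genes had an adjusted p under 0.05. DESeq2 called 9 genes in all where edgeR called 1. The number of sterol genes at an unadjusted p under 0.05 was 3, where 8.38% of all tested genes reached that level. It was 5 with no filter on low counts (6.49% of all) and 2 without both WT replicate 3 and Axl KO replicate 1 (5.46% of all). On leaving out 1 mouse it ran from 1 without WT replicate 3 (7.37% of all) to 6. The 6 occurred without Axl KO replicate 3 (14.8% of all) and without WT replicate 1 (6.7% of all). For the synthesis genes the median log2 fold change, without 1 mouse, ran from 0.095 (WT replicate 3) to 0.26 (WT replicate 1). Without both WT replicate 3 and Axl KO replicate 1 it was 0.049, but this pair was chosen after the values were seen. With the replicate number as a block, 6 sterol genes had an unadjusted p under 0.05 and 1050 of all genes did, against 1152. Same-numbered mice mostly did not deviate together (correlations −0.355 to 0.37, 1 of 5 above 0.1, and 1 of 5 Axl KO mice closest to its own number). These correlations cannot show whether same-numbered mice were littermates or handled together, and the labels do not say. Significant relations with Sqle numbered 11, 7 on deviations from genotype means, 0 without the 2 farthest mice and 1 without WT replicate 3. Of 448 log2 fold changes under alternatives 413 kept their sign and 35, in 12 genes, did not, and the cause was not tested. On leaving out 1 mouse they ran from −0.052 to 0.072 for Mvk, −0.072 to 0.079 for Pmvk, −0.12 to 0.30 for Mvd, −0.0041 to 0.15 for Tm7sf2, 0.0099 to 0.14 for Lss, −0.058 to 0.015 for Ebp, −0.0042 to 0.39 for Sc5d, −0.17 to 0.041 for Dhcr7, −0.10 to 0.039 for Srebf2, −0.081 to 0.16 for Insig1, −0.052 to 0.021 for Insig2 and −0.083 to 0.25 for Stard4. Among genes whose sign held on leaving out 1 mouse, the values moved by over 1.5 times for Idi1 (0.18 to 0.39), Fdft1 (−0.38 to −0.15), Sqle (0.32 to 0.70), Cyp51 (0.22 to 0.62), Msmo1 (0.22 to 0.48), Nsdhl (0.092 to 0.26), Hsd17b7 (0.23 to 0.48), Scap (0.056 to 0.13), Soat1 (0.061 to 0.27), Abca1 (0.10 to 0.20), Abcg1 (−0.16 to −0.0068) and Scarb1 (0.016 to 0.23), besides Lss. Without both WT replicate 3 and Axl KO replicate 1 they were −0.098 for Pmvk, −0.20 for Mvd, −0.0086 for Lss and 0.0087 for Ebp. Sc5d was then at −0.13, Dhcr7 at −0.22, Srebf2 at −0.14, Insig1 at −0.13 and Stard4 at −0.078. Several larger fold changes shrank, to 0.12 for Sqle, 0.092 for Cyp51, 0.095 for Idi1, 0.17 for Hsd17b7 and 0.18 for Msmo1. That of Fdft1, already negative, went to −0.38.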
